A study of Mus musculus with 12 samples.

Results

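Hsp90ab1, Calr, Hspa5 and Hspa8 encode protein chaperones. Their N6-methyladenosine (m6A) peaks were followed in the hippocampus of mice at 2 ages. The 4 genes were chosen by measured values of these same lists, namely which age had a call and how close the fold over control came to the 3-fold minimum of the lists. Peaks were taken in fixed windows of the mouse build mm9, a 1 bp overlap being enough. The windows were chr17:45704500-45710500 for Hsp90ab1, chr8:87365500-87371200 for Calr, chr2:34627300-34632400 for Hspa5 and chr9:40608000-40613500 for Hspa8. They held 14 peaks, which merged into 7 regions out of 70674 in all lists. The gene names come with the windows. No annotation of mm9 was used here, so exon, intron or UTR is not given for any peak.

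All mice were wild-type C57BL/6 males, 2 or 6 weeks old, with no treatment in the labels. Each age has a pair of m6A-IP libraries, which the labels number as biological replicates 1 and 2; the animals behind them are not named. In m6A-IP an antibody against m6A pulls down fragments of poly(A)+ RNA, and the tags (sequenced fragments) in a peak are compared with those of a control library. Of the 12 samples, 8 were not analysed here, among them adults of 8 to 12 weeks with and without a knockout of Fto.

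m6A is a methyl mark that a methyltransferase complex places on adenosines of messenger RNA, often within the letters GGAC, and that FTO and ALKBH5 can remove. Reader proteins bind it and act on splicing, decay and translation. Hsp90ab1 encodes the constitutive cytosolic HSP90 beta, and Hspa8 encodes HSC70, the constitutive cytosolic HSP70, which in neurons also uncoats clathrin-coated vesicles. Hspa5 encodes BiP, the HSP70 of the endoplasmic reticulum (ER), and Calr encodes calreticulin, a calcium-binding ER lectin that folds glycoproteins. HSP90 and HSP70 mRNAs are abundant in brain, and both families have close relatives and processed pseudogenes in the genome. How the authors placed reads that match several copies is not given in the sources used here, so the tags of these genes are uncertain in that respect.

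The lists held 33239 to 39259 peaks, nearly all 100 bp wide. IP depth was 23.4 M and 23.0 M tags at 2 weeks and 16.1 M and 16.5 M at 6 weeks (M, mega), if the files were scaled to 10 M tags, the caller's default. The controls held 29.3 M, 16.8 M, 15.8 M and 11.7 M. Depth and age therefore cannot be told apart. The library of 6-week replicate 1 stood apart in peak score: its median peak had a score of 32.7 per 100 IP tags, against 75.0 to 86.7 in the other libraries. How the caller was set to compute the score is not given in the sources used here. With 2 libraries against 2, no exact two-sided permutation test can give a p under 0.333. Because the age pattern chose the genes, the values below are a description with no test. In bulk tissue, fewer cells of a type and less RNA per cell cannot be told apart.

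Of the 7 chaperone regions, 2 were called at 2 weeks only (listed by both 2-week libraries and by no 6-week library), 0 at 6 weeks only and 1 in all 4 libraries. A further 1 was called in 1 library of each age, and 3 in a single library. Over all 70674 regions, 6.41% were called at 2 weeks only, 1.92% at 6 weeks only, 14.4% in all 4 libraries and 58.6% in 1 library. Since the rule used this contrast, nothing is read from the members' counts. At 2 weeks each list had 4 peaks in the windows; 6-week replicate 1 had 4 and 6-week replicate 2 had 2.

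**Figure D1:**
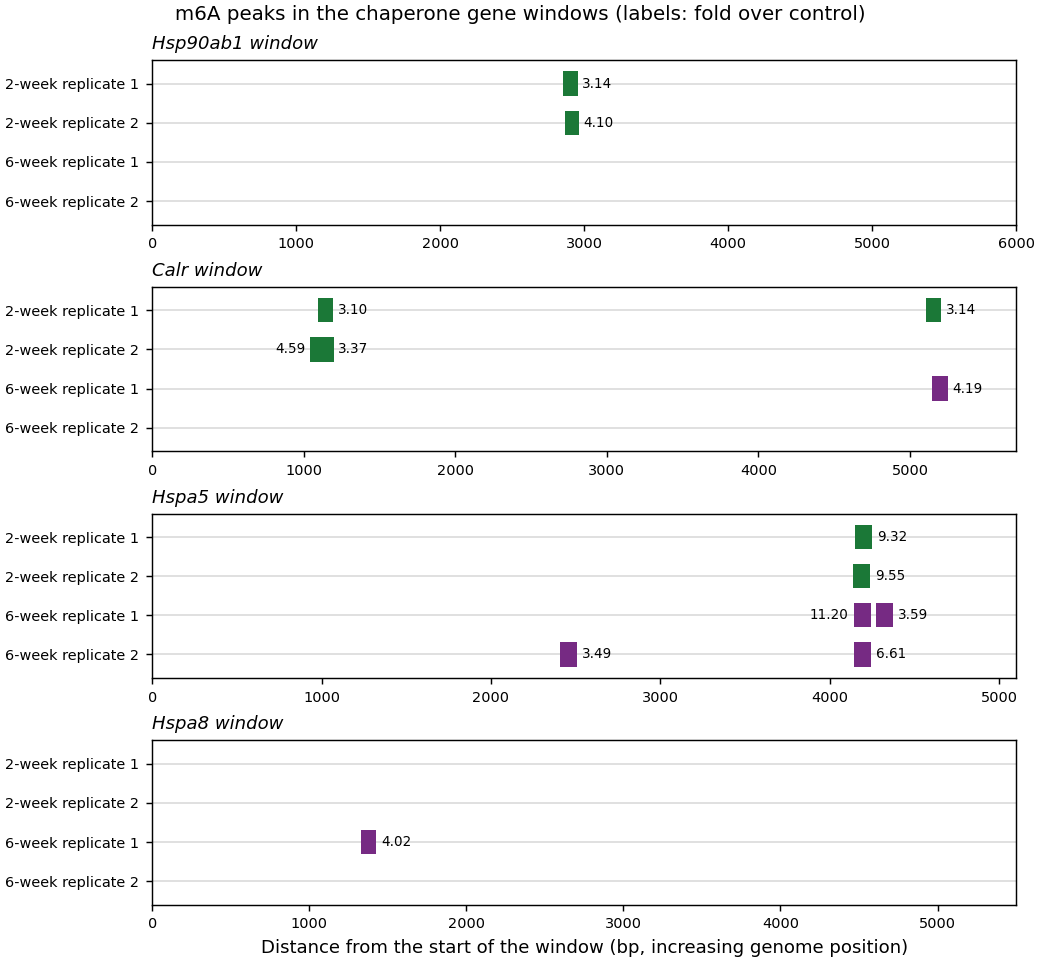
Position of each called peak in the 4 gene windows, as distance in bp from the window's start, 1 row per library, green at 2 weeks and purple at 6 weeks, with the fold over control beside each peak. Hsp90ab1 has peaks in the 2-week rows only, at 3.14-fold and 4.10-fold, and 1 Hspa5 peak appears in all 4 rows, at 6.61-fold to 11.2-fold.

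Hsp90ab1 carried 1 region, chr17:45707355-45707465, near the middle of its window. In 2-week replicate 1 the peak held 11282 IP tags and 4499 control tags. In 2-week replicate 2 it held 21449 IP tags and 3834 control tags. Neither 6-week list had a peak in the window, and a list gives no tags where no peak was called, so the 6-week levels of this RNA and its enrichment there are unknown. The peak was among the largest of its lists: it ranked 3 in IP tags in both, and its control tags ranked 1 of 39259 and 3 of 39105 peaks. Its scores ranked 1 and 2.

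Its enrichment, in contrast, lay in the lower part of both lists, and closeness to the minimum was part of how the gene was chosen. The fold over control was 3.14 in replicate 1, with a 95% interval of 3.03 to 3.25 (exact binomial, counting error only), and 4.10 in replicate 2, with 3.96 to 4.25. The intervals of the replicates did not overlap, so the replicates differed by more than counting error. Of the peaks, 3.37% in the first list and 18.4% in the second had a lower fold. Among peaks with at least 300 control tags per 10 M, the median fold was 4.12 in the first list and 4.11 in the second. Per 10 M tags, IP was 4814 in replicate 1 and 9342 in replicate 2, a ratio of 1.94, and control was 1535 and 2278, a ratio of 1.48. The higher fold of replicate 2 thus went with more IP tags, not with fewer control tags. In replicate 1 the fold lay 4.67% above the minimum of 3. The score was 17.7 and 10.04 per 100 IP tags in the replicates, against list medians of 84.4 and 75.0. The median peak of each list held 36 IP tags, far fewer. The main 2-week peaks of Calr and Hspa5 also lay below these medians, at 17.0 to 38.9.

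The peaks nearest to the window on the outside were small. At 6 weeks they lay 276 and 287 bp beyond its lower end, at 5.25-fold and 4.54-fold, on 6.97 and 4.27 control tags per 10 M. At 2 weeks the nearest lay 854 and 857 bp beyond it, at 5.36-fold and 6.62-fold, on 20.5 and 25.0 control tags per 10 M. They held far fewer control tags than the 1535 and 2278 of the Hsp90ab1 peak.

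Calr had 2 regions, 3908 bp apart. The first, chr8:87366539-87366698, was called at 2 weeks only. Its main peak held 2616 IP and 1056 control tags in replicate 1, and 3979 IP and 866 control tags in replicate 2. Per 10 M tags these were 1116 and 1733 in IP and 360.2 and 514.5 in control, so replicate 2 was again higher in both, by 1.55 and 1.43 times. The folds were 3.10 (95% interval 2.88 to 3.33) and 3.37 (3.13 to 3.63), and these intervals overlapped. The first fold lay 3.33% and the second 12.3% above the minimum, and the interval of the first reached below it. In replicate 2 a smaller peak in the same region, with 513 IP and 82 control tags, stood at 4.59-fold.

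The second Calr region, chr8:87370606-87370748, was called once at each age. In 2-week replicate 1 the peak held 439 IP and 175 control tags at 3.14-fold (95% interval 2.63 to 3.76). In 6-week replicate 1, 42 bp further along, it held 304 IP and 71 control tags at 4.19-fold (3.23 to 5.51). Per 10 M tags the IP values were 187.3 and 188.5 and the control values 59.7 and 45.0. The fold intervals overlapped. Both replicates 2 lacked the peak, so each age is represented by 1 library here and no difference between the ages is read from these values. It was the only Calr peak of either 6-week list, and outside the window the nearest peaks were 4530 to 6819 bp away.

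Hspa5 had the one region of these genes called in all 4 libraries, chr2:34631438-34631550, with peak starts within 12 bp of each other. The IP tags were 2735 and 3374 in the 2-week replicates and 1464 and 885 in the 6-week replicates. The control tags were 367 and 259 at 2 weeks and 128 and 95 at 6 weeks. Its folds were far from the minimum, at 9.32 (95% interval 8.36 to 10.4) and 9.55 (8.41 to 10.9) at 2 weeks, 11.2 (9.34 to 13.5) in 6-week replicate 1 and 6.61 (5.34 to 8.25) in 6-week replicate 2. The 6-week replicates lay on either side of the 2-week ones, so the ages overlapped in fold. The 6-week intervals did not overlap each other.

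In tags, the ages did not overlap at this region. Per 10 M tags, the 2-week controls averaged 139.5 ± 20.3 and the 6-week controls 81.1 ± 0.0232 (SD over 2 libraries), which is a log2 difference of -0.78. IP averaged 1318 ± 213.9 and 721.9 ± 262.9, a log2 difference of -0.91. Such non-overlap with lower 6-week values was common: it held in control for 46.6% and in IP for 41.7% of the 10203 regions called in all 4 libraries. The median difference of all such regions was -0.56 in control, over the 9312 with a control tag in every library, and -0.43 in IP. Scaled by the median of ratios, which moves those medians to 0.01 and 0.01, the Hspa5 differences were -0.21 and -0.47. The typical region was thus lower at 6 weeks as well, by most of the Hspa5 difference in control. The 2-week folds averaged 9.44 ± 0.163 and the 6-week folds 8.91 ± 3.25 (SD over 2 libraries). The log2 difference in fold was -0.13 and became 0.25 without 6-week replicate 2. The median over all regions was 0.15 with every library and 0.34 without 6-week replicate 2, so Hspa5 lay below it both times.

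The other 2 Hspa5 regions were called in a single 6-week library each. One, chr2:34631573-34631673, began 23 bp after the shared region and held 396 IP and 108 control tags at 3.59-fold (95% interval 2.89 to 4.48) in replicate 1. The other, chr2:34629710-34629810, held 335 IP and 68 control tags at 3.49-fold (2.69 to 4.61) in replicate 2. Both stood near the minimum, with intervals that reached below it, and their control levels of 68.4 and 58.1 tags per 10 M were not far from the 81.1 of the shared region. The Hspa5 window therefore held a strong peak found in every list and weak ones found once.

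Hspa8 had no peak in either 2-week list or in 6-week replicate 2. Its 1 peak, chr9:40609328-40609428 in 6-week replicate 1, held 37 IP and 9 control tags at 4.02-fold, with a wide 95% interval of 1.91 to 9.48. The control level there was 5.70 tags per 10 M, between the 4.27 and 6.97 of the 6-week peaks just outside the Hsp90ab1 window. In control tags it ranked 12143 of 33239, so although HSC70 mRNA is known to be abundant, this peak did not lie on abundant RNA. No peak of high control level was listed for Hspa8 at either age. A list that starts at 3-fold does not show whether such RNA was enriched by less than that or not at all.

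**Figure D2:**
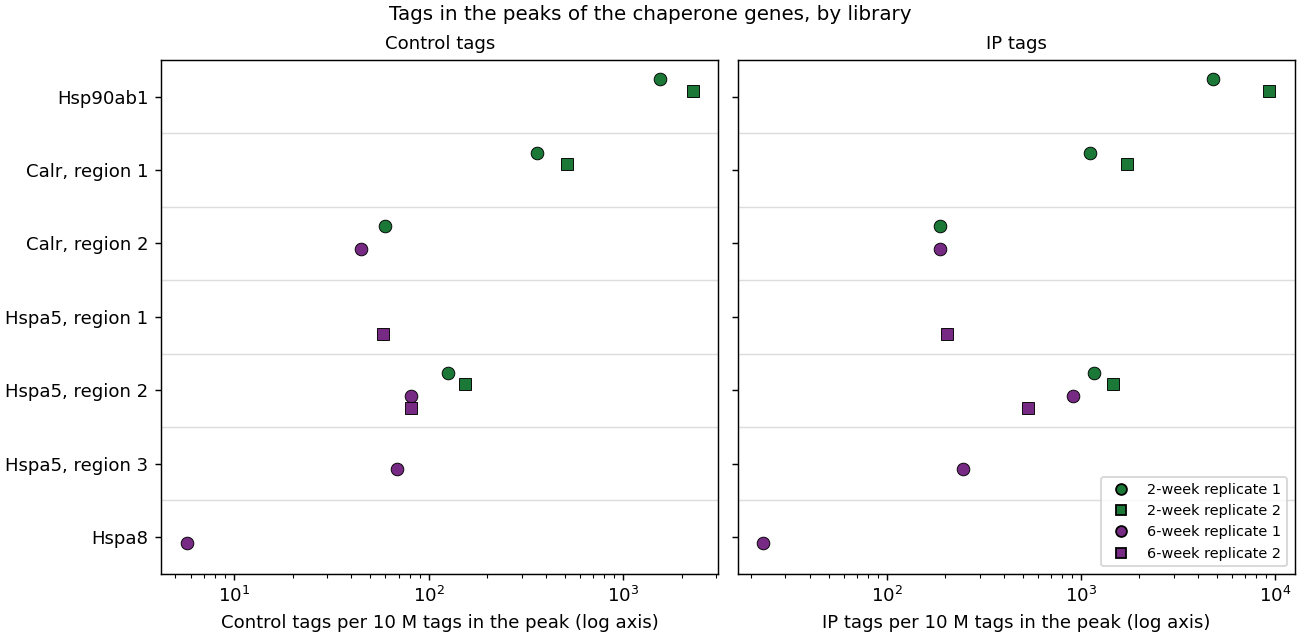
Control tags (left) and IP tags (right) per 10 M tags in the peaks of each chaperone region, on log axes, with regions of a gene numbered along the genome and 1 point per library that called the region (green, 2 weeks; purple, 6 weeks; circles, replicate 1; squares, replicate 2). Control tags span 5.70 at Hspa8 to 2278 at Hsp90ab1, and the second Hspa5 region shows both 6-week points below both 2-week points in each panel.

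Among the peaks, all 100 bp wide, the control tags per 10 M gave an order of RNA level within the peak. Hsp90ab1 was highest with 1535 and 2278, followed by the first Calr region with 360.2 and 514.5 and the shared Hspa5 region with 125.2 and 153.9 at 2 weeks. These neighbours in the order did not overlap between genes. The weaker regions of Calr and Hspa5 lay between 45.0 and 68.4 and overlapped each other. The folds are given as a description only, since closeness to the minimum was part of how the genes were chosen. The shared Hspa5 peak had the highest of them at 2 weeks, 9.32 and 9.55. The Hsp90ab1 peak, at 3.14 and 4.10, stood above the main Calr peak, at 3.10 and 3.37, in both replicates. The weaker Calr and Hspa5 regions had low folds as well, 3.14 to 4.19.

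The ER pair shares a feature of its promoters. The ER stress element, which the unfolded protein response uses to raise ER chaperone genes, is CCAAT, then 9 bases of any kind, then CCACG. RefSeq promoters (build GRCm38.p6, not the build of the peaks) were given for Calr and Hspa5 only among the 4 genes. In the 250 bases before the start site the element was found once in each, on the gene's strand in Hspa5 and on the opposite strand in Calr. On either strand it was present in 37 of 32851 such promoters (0.113%). A match is a description of the letters, not of use in these mice. The stretches are shown for the element that these genes have in common. The first is chr2:34771985-34772083, plus strand, and the second chr8:84847035-84847133, minus strand, each written 5′ to 3′ along the gene with the element in capitals and 40 bases on either side.
Hspa5: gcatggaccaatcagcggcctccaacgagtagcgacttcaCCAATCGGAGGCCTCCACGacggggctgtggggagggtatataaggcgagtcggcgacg
Calr: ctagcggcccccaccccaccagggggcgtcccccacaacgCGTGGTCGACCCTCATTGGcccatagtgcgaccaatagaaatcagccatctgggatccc

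The Hsp90ab1 and Calr calls were then set beside other peaks on abundant RNA. Peaks with at least 300 control tags per 10 M were 59 and 100 in number for the 2-week replicates, then 51 and 40 for those of 6 weeks. Of these, 27.1%, 28.0%, 41.2% and 25.0% had a fold under 3.5. Over whole lists 9.04% to 12.2% of peaks were that close to the minimum. Most listed peaks held under 10 control tags per 10 M, and of those 5.86% to 9.59% were that close. From 10 to 30 control tags the shares were already 18.1%, 18.2%, 21.3% and 25.9%. In 6-week replicate 2 the share on abundant RNA was thus no higher than at 10 to 30 control tags. Peaks on very abundant RNA were listed at 6 weeks too. In replicate 1, 9 peaks held at least 1000 control tags per 10 M, and in replicate 2, 7 did, with median folds of 3.13 and 5. The 2-week replicates had 5 and 14 peaks above this limit, Hsp90ab1 among them, with median folds of 3.14 and 4.565. This limit lies below the 1535 and 2278 of Hsp90ab1.

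**Figure D3:**
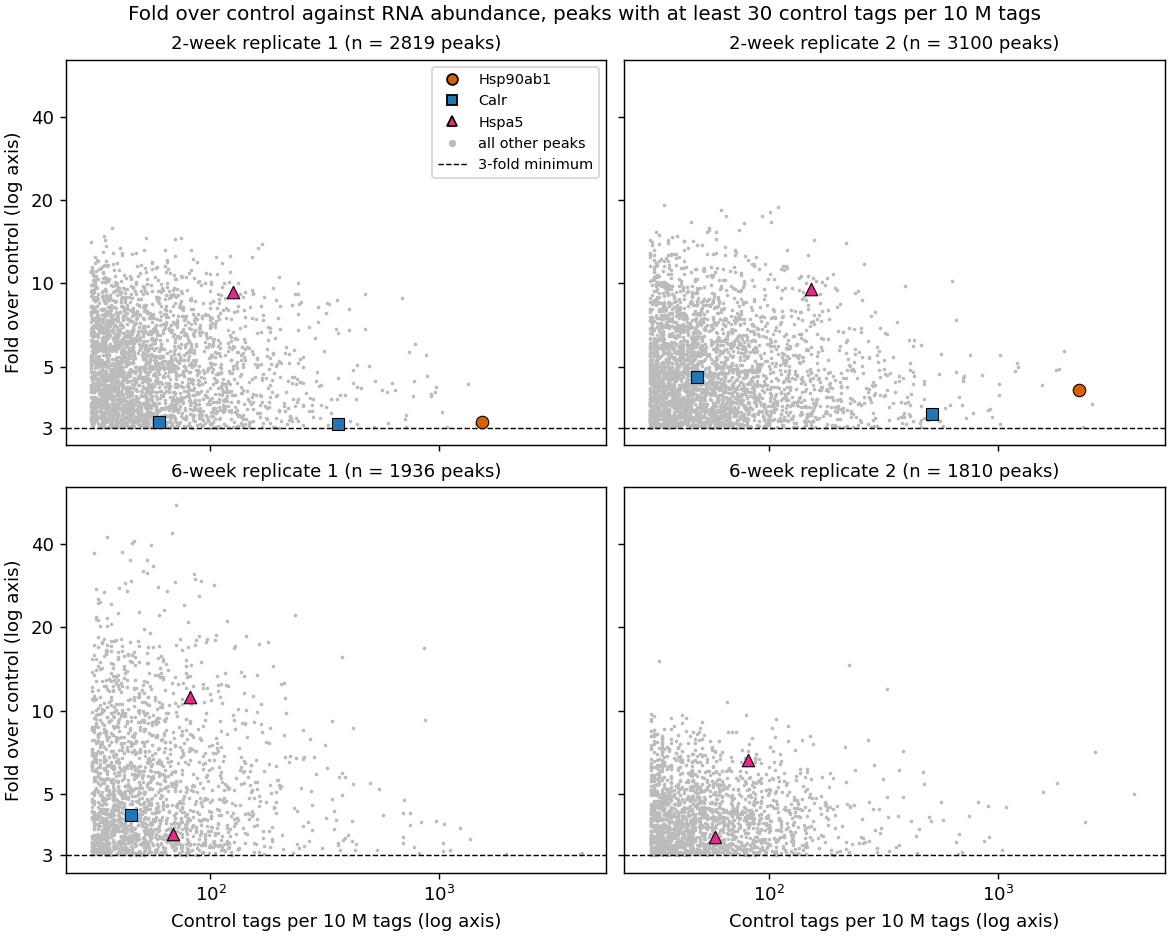
Fold over control against control tags per 10 M (both log axes) for every peak with at least 30 control tags per 10 M, 1 panel per library, with the chaperone peaks as large symbols, other peaks in grey and the 3-fold minimum as a dashed line; the Hspa8 peak, at 5.70, lies below the range. Hsp90ab1 is the rightmost peak of 2-week replicate 1, at 3.14-fold, and ranks 3 from the right in 2-week replicate 2, at 4.10-fold. The shared Hspa5 peak stands at 6.61-fold to 11.2-fold.

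In all, 59 regions were called in both 2-week lists with a mean of at least 300 control tags per 10 M. Hsp90ab1 ranked 1 among them, with a mean of 1906, and the first Calr region 29, with 437.4. Of the 59, 33 were called in both 6-week lists, 19 in 1 and 7 (11.9%) in neither, Hsp90ab1 and Calr being 2 of the 7. The other 5 were chr18:61144547-61144671, chr2:157387670-157387771, chr15:25293954-25294062, chr17:57184669-57184769 and chr12:30496449-30496549, and the lower of the replicate folds of these 5 ranged from 3.01 to 4.43. In the other direction, 23 regions of this abundance were called in both 6-week lists, and 0 (0%) were missing from both 2-week lists. At this abundance the missing calls were thus all on the 6-week side, where the libraries were also shallower; the part of depth in this was not tested.

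With the limit lowered to 100 control tags per 10 M, 397 regions were called in both 2-week lists. The share without a 6-week call fell as the 2-week fold rose. It was 22 of 103 (21.4%) where the lower 2-week fold was 3 to 3.5, the class of both Hsp90ab1 and Calr. Both are counted in the 22. They were chosen by age of call and closeness to the minimum, so nothing is read from their place in this class. The share was 3 of 152 (1.97%) from 3.5 to 5, 0 of 109 from 5 to 8 and 0 of 33 at 8 or more, the class of Hspa5. Even in the lowest class, 38 regions (36.9%) were called in both 6-week lists and 43 (41.7%) in 1. So 22 of the 25 regions missing at 6 weeks were in the lowest class, and most regions of that class still had a 6-week call. The lists are cut at 3-fold, so a region near the cut can drop out of any other list. No difference between the ages is read from these shares. Of the 179 regions this abundant in both 6-week lists, 0 were missing from both 2-week lists and 14 (7.82%) were called in only 1 of them. The fall with rising 2-week fold depended on abundance. At 300 or more control tags per 10 M, the share was 5 of 22 (22.7%) at 3 to 3.5 and 2 of 26 (7.69%) at 3.5 to 5. From the lowest to the highest fold class it went from 13.7% to 0% at 30 to 100 control tags and from 13.5% to 0.579% at 10 to 30. Under 10 control tags it did not fall, at 29.5%, 28.3%, 29.1% and 39.8%.

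**Figure D4:**
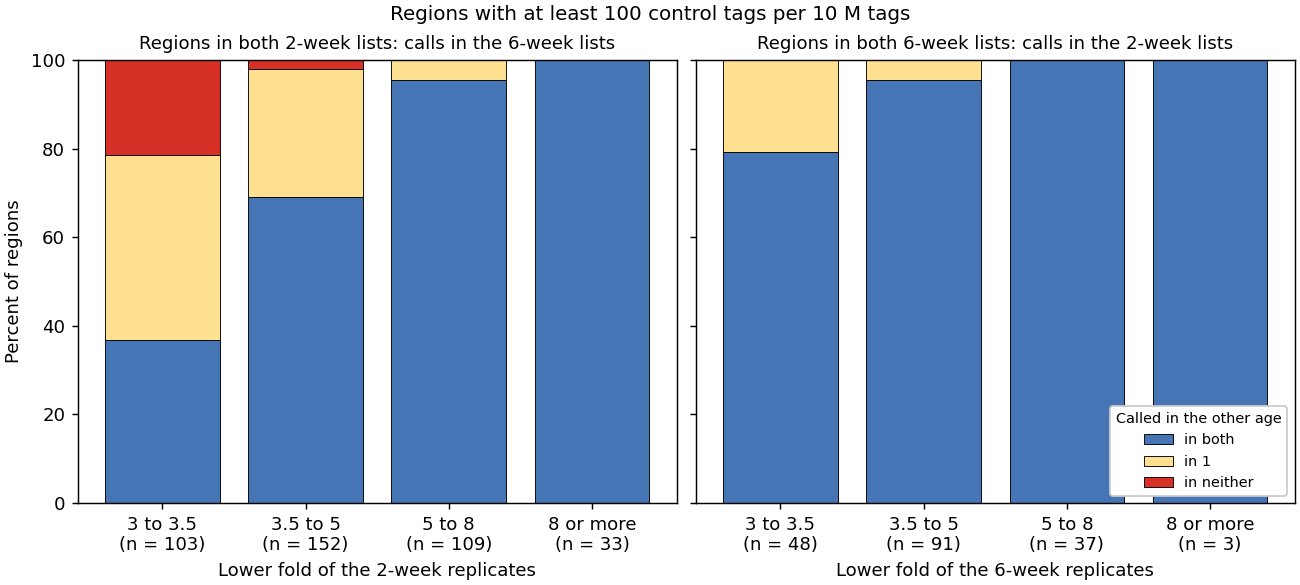
Percent of regions called in both lists of one age that were called in both, 1 or neither list of the other age, by the lower fold of the replicates, for regions with at least 100 control tags per 10 M (left, 2-week regions; right, 6-week regions; n under each bar). The share in neither list is 21.4% at 3-fold to 3.5-fold on the left and 0 in every class on the right.

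The spread of the fold between replicates was also taken from regions of this abundance. At regions with at least 100 control tags per 10 M called in both libraries of an age, the folds of the replicates differed by a median of 17.1% at 2 weeks (397 regions) and 51.3% at 6 weeks (179 regions). Replicate 2 had the higher fold in 41.3% of these regions at 2 weeks and in only 22.3% at 6 weeks. Between the 2-week replicates, replicate 2 was higher by 1.31 times at Hsp90ab1 and by 1.09 times at the main Calr peak. The folds lay 4.67% and 36.7% above the minimum at Hsp90ab1 and 3.33% and 12.3% above it at Calr. Closeness to the minimum was part of how the genes were chosen, so nothing is read from these margins, and the 6-week folds of both cannot be read from lists of called peaks.

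Among the 3177 other regions called at 2 weeks only with control tags in both libraries, those most like Hsp90ab1 in log2 IP and control tags per 10 M (Euclidean distance over 4 values, 2 libraries) were chr18:61144547-61144671, the first Calr region and chr15:25293954-25294062. Their distances were 2.50, 4.40 and 4.43 on the log2 scale, so none was close. The nearest held 8009 and 7594 IP tags at 4.43-fold and 4.62-fold, with 772.0 and 715.9 control tags per 10 M, less than the 1535 and 2278 of Hsp90ab1.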

How the data were processed

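The labels describe m6A-IP of hippocampal poly(A)+ RNA. HOMER, the build mm9, TopHat2 (2.0.13 and 2.1.1), Cufflinks 2.2.1 and Bowtie2 2.2.3 are named, without their roles, per the submitters' processing notes. Per the file headers, HOMER called peaks for each library separately; its options and each list's control library were not given in the sources used here. The authors' normalized tag count is a signal, each library having its own constant. Deposited IP tags are whole counts in 2-week replicate 1 and a scaled signal elsewhere. The fold ratio over control (3 or more), the score and the p-value (8.32e-05 or less) of each peak are the authors' deposited values; the deposited focus ratio, a fraction, was not used.

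Tags were recovered by dividing scaled values by the value of 1 tag (100% whole within 0.2 tag). A control value of 0.5 tag was set to 0. Peaks sharing 1 bp were merged into regions. Fold intervals came from exact binomial intervals of IP over all tags of a peak and cover counting error only. The functions were tested on simulated lists. Python 3.11.15, pandas 2.3.3, numpy 2.4.6 and scipy 1.17.1 were used.

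The genes and lists were chosen with earlier results of these data known. Every region in the 4 windows is named, and the 3 regions most like the leading one were chosen by distance. Abundance and fold classes were chosen after the data were seen. Lists of other chaperone genes and of cell type markers were drawn up but not analysed here, since gene positions in mm9 were not used, so the tissue label was not checked. Alternatives were other window and merging rules, stricter folds, another scaling and leaving out each library.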

Additional observations from a re-analysis of the deposited data

How the results depend on the processing

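With a 4-fold minimum, 0 chaperone regions were called at 2 weeks only and the 2-week lists held 4 chaperone peaks. With 8-fold, 0 regions were called at 2 weeks only and 0 in all 4 libraries, and the lists held 2 and 1 peaks; fewer peaks enter by construction. Leaving out 1 library gave 4 to 8 peaks in the 2-week lists, 2 to 6 in the 6-week lists and 0 to 2 regions called at 6 weeks only (1 without 6-week replicate 1, 2 without 6-week replicate 2), since 1 list then needs no second call. Regions called at 2 weeks only still numbered 2. At the shared Hspa5 region, scaling by the median of ratios gave log2 differences of -0.21 in control and -0.47 in IP; the fold difference ranged from -0.51 to 0.25 when 1 library was left out, reversed without 6-week replicate 2. Placing peaks by their centre changed none of these counts. Merging within 200 bp joined the 2 Hspa5 regions that lie 23 bp apart, which left 6 regions, 2 of them called in a single library; the numbers called at 2 weeks only, at 6 weeks only and in all 4 libraries did not change. No paired analysis was possible because no result comes from a test, and the labels do not say that a replicate number links libraries of the 2 ages. Below 3-fold nothing is listed, so a missing peak gives no level.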
